A study of Homo sapiens with 4 samples.

Results

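The genes described here are 30 genes of the p53 pathway, namely regulators of the p53 protein and genes that p53 is known to activate. RNA came from SH-SY5Y, an established human neuroblastoma line with neuronal features. There were 2 arrays of cells transfected with an siRNA against LSD1 (siLSD1) and 2 of cells transfected with a control siRNA (siControl), each array from a transfection of its own. The title of siLSD1 replicate 2 gives the target as LSD. LSD1, encoded by KDM1A, is a lysine demethylase of histones. All 4 arrays come from 1 parental cell line and differ by label only in the siRNA. The KDM1A transcript was lower in siLSD1 cells but still present, and LSD1 protein was not measured on these arrays. A gene entered when a probe set of the Affymetrix array named it alone, and its brightest probe set, averaged over the arrays, represented it. This held for 27 of the 30 genes, out of 19775 genes named on the array. BBC3, BTG2 and FDXR had no probe set naming them alone, and their RNA levels were not analysed here.

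p53 is a transcription factor that is kept scarce in unstressed cells, because MDM2 marks it for degradation and MDM4 masks its activation domain. Damage to DNA and other stresses release it, and its target genes then halt division, repair DNA, alter metabolism or start apoptosis. Several targets, MDM2 among them, feed back on p53 itself. LSD1 is known to remove methyl groups from p53 as well as from histones, which limits the binding of the p53 partner TP53BP1. Neuroblastoma cells often keep an intact p53 gene and silence the pathway through its regulators.

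The elements that p53 binds consist of a pair of short consensus units, which were searched for near the starts of these genes. RefSeq start-site windows on GRCh38.p14, from 250 bases before to 50 bases after each start, were available for 23 of the 30 genes. FBXO22, TNFRSF10B, TP53INP1, PHLDA3, GADD45A, RRM2B and CMBL had no entry. The p53 consensus unit of 10 bases, which reads alike on both strands, was present in 6 of the 34 windows of these genes (17.6%) and in 6.63% of all 35116 windows of the same length. The consensus units are given in capitals, 5′ to 3′ on the strand of the gene, with flanking bases.
DDB2: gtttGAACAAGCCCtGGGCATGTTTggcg
FAS: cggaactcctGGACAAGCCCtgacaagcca
AEN: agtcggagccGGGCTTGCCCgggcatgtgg
PLK2: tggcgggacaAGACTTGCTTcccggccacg
SESN1: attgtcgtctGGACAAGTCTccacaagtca
FDXR: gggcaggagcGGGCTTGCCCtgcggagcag
The DDB2 stretch lies at chr11:47214975-47215003 on the plus strand. It holds 2 units separated by 1 base, which begin at base 6 after one of the annotated starts. A pair of units at most 13 bases apart was found in 10 of the 35116 windows. The FAS stretch is at chr10:88991299-88991328 (plus strand), with its unit beginning 122 bases before a start. That of AEN is at chr15:88621296-88621325 (plus, 34 bases before) and that of PLK2 at chr5:58460199-58460228 (minus, 132 bases before). The stretch of SESN1 is at chr6:109009018-109009047 (minus, 49 bases before) and that of FDXR at chr17:74872986-74873015 (minus, 11 bases before). A match describes the letters in the window and is not evidence of binding in these cells.

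All levels are log2 signals after quantile normalization, and differences are siLSD1 minus siControl. Levels of different genes come from different probes and are not compared. In RNA from whole cultures, fewer cells expressing a gene and less of its RNA per cell cannot be told apart. KDM1A, the siRNA's target, had 8.40 and 8.54 on the siLSD1 arrays, against 9.79 and 9.78 on the siControl arrays, so its transcript stood at 40.1% of the control level. Its adjusted p was 0.394 in limma over the 11865 genes bright enough to be tested. In limma 0 genes passed an adjusted p of 0.05 and 408 genes (3.44%) had an unadjusted p under 0.05. Of 10 markers of noradrenergic neuroblastoma, 9 had a probe set of their own and 8 were above the filter for dim genes, with TH below it. Mean levels of blood cell markers were 1.52 to 2.03 in siLSD1 and 2.07 to 2.45 in siControl, with 1 of 5 above the filter, and those of epithelial markers were 1.91 to 2.46 in siLSD1 and 1.28 to 2.46 in siControl, with 1 of 4 above it. All 6 fibroblast markers were above the filter, at mean levels of 6.41 to 6.53 in siLSD1 and 6.07 to 6.36 in siControl, and their part in the results was not tested. The array siControl replicate 1 had the lowest mean correlation with the other arrays (0.936, the others 0.945 to 0.946) and was the highest or lowest of the 4 for 66.1% of genes. With 2 arrays a group, the smallest two-sided p of an exact permutation test is 0.33.

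No regulator or target of p53 passed the test after LSD1 knockdown, and their differences ran both ways. Means were higher in siLSD1 for 12 of the 27 genes measured and lower for 15, and the median log2 fold change was -0.05, beside 0.0071 over all genes tested, of which 51.3% were higher. The adjusted p in limma was at least 0.9997 for each gene of the set, where 0% of all genes were called. After quantile normalization, 0 of the 27 had an unadjusted p under 0.05 in limma. The typical gene of the set differed by 1.12-fold in either direction, as did the typical gene of the array (1.12-fold). By the brightest probe set of each gene, only FAS differed by more than 1.5-fold, 1 of 27 genes against a background of 7.72%. When each array was centred on its median in place of quantile normalization, 22 of the 27 means were higher, but the median of all genes moved to 0.18 and that of the set to 0.14, so the set again lay slightly below all genes.

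For the brightest probe set of each gene, the intervals bound how large a difference could have been missed. The 95% interval of the log2 fold change lay within a 2-fold difference in both directions for 23 of the 27 genes, against 71.9% of all genes tested. The exceptions were BAX, FAS, PLK2 and PLK3. Within a 1.5-fold difference the interval lay for 5 of the 27 genes, against 3099 of all 11865 genes tested. Dimmer probe sets above the filter were not always so bounded. Intervals of such probe sets passed a 2-fold difference for MDM2, MDM4, FBXO22, APAF1, TNFRSF10B, ZMAT3, POLH and SESN2. That of MDM4 225742_at ran from -2.11 to -0.84. By the brightest probe sets, the values of the groups did not overlap in 9 of the 27 genes, or 33.3%, where the share over all genes was 31.6%. MDM2, TNFRSF10B, PLK3, ZMAT3 and DDB2 were separated upwards, 5 genes against a background of 16.6%. CCNG1, TRIAP1, FAS and AEN were separated downwards, 4 genes against a background of 15.1%. For TRIAP1, TNFRSF10B, ZMAT3 and DDB2 the difference between the groups was also larger than the larger of the gaps between replicates, which is 4 of 27 genes where 18.8% of all genes do so.

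**Figure D1:**
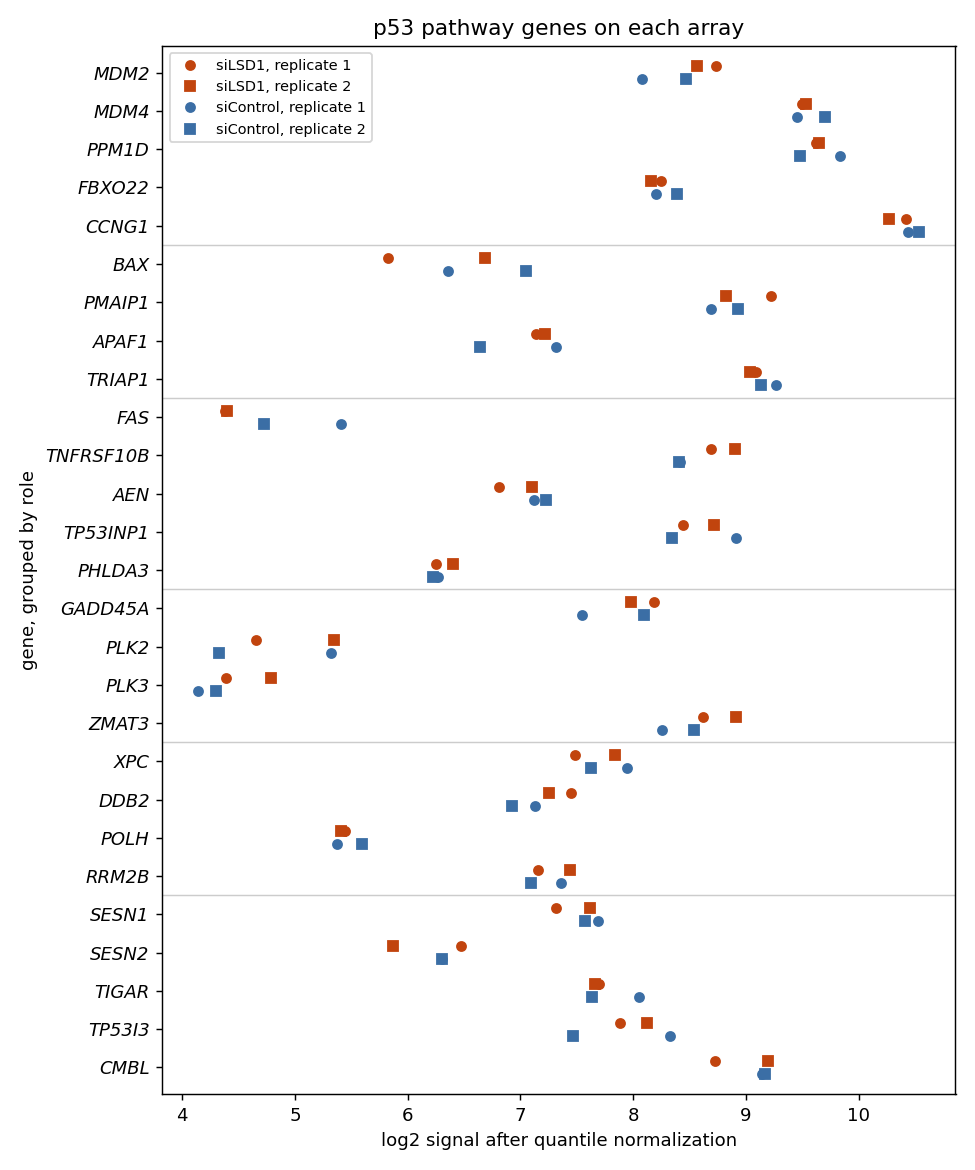
Log2 signal of each of the 27 genes (rows, grouped by role, italic labels) on the 4 arrays, with siLSD1 arrays in orange above siControl arrays in blue and circles and squares for replicates 1 and 2. The groups are separated for 9 genes, and for the other 18 the points of the groups interleave, as for PLK2 or TP53I3.

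Among 5 regulators of p53, MDM2 was the 1 gene with a higher mean, though MDM4, PPM1D and FBXO22 lay above 0 as well when arrays were centred on their medians. MDM2, the ubiquitin ligase that degrades p53 and is itself a p53 target, had 8.74 and 8.57 in siLSD1 cells, against 8.08 and 8.47 in siControl cells. The means of 8.65 ± 0.12 and 8.28 ± 0.27 (SD, n = 2 each) gave a log2 fold change of 0.38, or 1.30-fold, with a 95% interval from -0.11 to 0.87 and an unadjusted p of 0.113 in limma. Both siLSD1 values were above both siControl values. Without siControl replicate 1 the log2 fold change was 0.18, and the 4 other MDM2 probe sets above the filter gave 0.05, -0.38, 0.23 and -0.20, each with overlapping groups. MDM4, the MDM2 relative that inhibits p53 without degrading it, had 9.49 and 9.54 in siLSD1, against 9.45 and 9.71 in siControl, a log2 fold change of -0.06. The siLSD1 arrays lay between the siControl arrays. PPM1D, the phosphatase WIP1 that dampens the damage response, had 9.63 and 9.65 in siLSD1, against 9.83 and 9.48 in siControl (log2 fold change -0.02). FBXO22, an F-box protein that takes part in the degradation of methylated p53, had 8.24 and 8.16 in siLSD1, against 8.20 and 8.39 in siControl (log2 fold change -0.10). In both genes the groups overlapped by the brightest probe set. A dimmer PPM1D probe set, 230330_at, was separated upwards (log2 fold change 0.18). The dimmer FBXO22 probe set 225737_s_at was separated downwards (-0.18), while the other FBXO22 probe sets overlapped. CCNG1, cyclin G1, a target that activates MDM2 through a phosphatase, had 10.42 and 10.27 in siLSD1, against 10.44 and 10.54 in siControl. Its groups were separated by a narrow margin, with a log2 fold change of -0.14 and an interval from -0.40 to 0.12.

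MDM4 had 4 probe sets above the filter, and they disagreed. The probe set 225742_at had 6.12 and 6.50 in siLSD1, against 7.64 and 7.92 in siControl, a log2 fold change of -1.47 (2.78-fold lower, 95% interval -2.11 to -0.84). It had the smallest p of the set's probe sets, an unadjusted p of 0.000841 in limma fitted to all 22284 probe sets above the filter and an adjusted p of 0.995. The probe set 236814_at lay on the other side, with 9.09 and 9.11 in siLSD1, against 8.43 and 8.83 in siControl, a log2 fold change of 0.47 (unadjusted p = 0.0487, adjusted p = 0.995 in limma). The groups of each of these 2 probe sets were separated, in opposite directions, while the brightest probe set, 225740_x_at, showed overlapping groups. Its suffix marks probes that may also bind other sequences. The remaining one, 235162_at, had a log2 fold change of -0.32, also with separated groups. Leaving out any 1 array kept 225742_at between -1.67 and -1.28 and 236814_at between 0.27 and 0.68, an alternative that was added after these values were seen. Both directions had to hold, because the groups of 225742_at and of 236814_at were separated. These probe sets were singled out because they differed, and which transcripts of MDM4 each probe set detects was not tested.

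Of the mitochondrial apoptosis genes, 2 had a higher and 2 a lower mean, and BAX was the lowest. BAX, which permeabilizes the outer mitochondrial membrane, had 5.82 and 6.69 in siLSD1, against 6.36 and 7.05 in siControl. The arrays of each group lay far apart, and the log2 fold change of -0.45 had an interval from -1.30 to 0.40 (unadjusted p = 0.261 in limma). A second BAX probe set pointed the same way with separated groups, at 6.37 and 6.02 in siLSD1, against 6.97 and 6.53 in siControl (log2 fold change -0.55). PMAIP1, which encodes NOXA, a BH3-only activator of apoptosis, had 9.23 and 8.82 in siLSD1, against 8.69 and 8.93 in siControl (log2 fold change 0.21). Its other probe set was likewise higher, at 0.42 with separated groups. APAF1, the scaffold of the apoptosome, had 7.14 and 7.22 in siLSD1, against 7.32 and 6.64 in siControl. Its log2 fold change was 0.20, while a dimmer probe set gave -0.73 with separated groups, so that the direction for APAF1 depends on the probe set. TRIAP1, a small mitochondrial protein that restrains apoptosis, had 9.09 and 9.03 in siLSD1, against 9.27 and 9.13 in siControl. The separation of TRIAP1 was complete but small, at -0.14 (interval -0.51 to 0.23), and the value was 0.05 under median centring. BAX and PMAIP1 are also genes of the BCL2 family, and within these 2 the pro-apoptotic effector was lower and the BH3-only gene higher, neither past the test.

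By their brightest probe sets, the death receptors stood at opposite ends of the set. With the mean of all probe sets, FAS gave -0.10 and TNFRSF10B 0.04. FAS, the receptor of FAS ligand, had 4.38 and 4.40 in siLSD1, against 5.41 and 4.72 in siControl. Means of 4.39 ± 0.01 and 5.06 ± 0.48 (SD, n = 2 each) gave the lowest log2 fold change of the 27 genes, -0.67 or 1.60-fold lower (interval -1.58 to 0.23, unadjusted p = 0.124 in limma). The siLSD1 values lay close to the filter level of 4.12. Of the control arrays, siControl replicate 1 was the far one, and without it the log2 fold change was -0.33. The other FAS probe sets, all below the filter, gave 0.16, 0.36, -0.33 and 0.01. TNFRSF10B, a receptor of the ligand TRAIL, had 8.69 and 8.91 in siLSD1, against 8.42 and 8.41 in siControl. Its log2 fold change of 0.39, or 1.31-fold, was the highest of the set and had the smallest p (unadjusted p = 0.072 in limma, interval -0.04 to 0.82). Its control arrays almost coincided and both siLSD1 arrays exceeded them. A dimmer TNFRSF10B probe set, 209294_x_at, was separated the other way, with 5.43 and 4.66 in siLSD1, against 5.71 and 5.87 in siControl (log2 fold change -0.75), and a further one gave -0.24.

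Other effectors of cell death differed little. AEN, a nuclease that fragments DNA, had 6.81 and 7.10 in siLSD1, against 7.13 and 7.23 in siControl (log2 fold change -0.22). The upper siLSD1 value nearly reached the lower siControl value. TP53INP1, a nuclear protein that promotes apoptosis and autophagy, had 8.44 and 8.72 in siLSD1, against 8.92 and 8.35 in siControl (log2 fold change -0.05). PHLDA3, which blocks the kinase AKT by binding membrane lipids, had 6.25 and 6.40 in siLSD1, against 6.27 and 6.22 in siControl (log2 fold change 0.08). In TP53INP1 and PHLDA3 the groups overlapped.

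**Figure D2:**
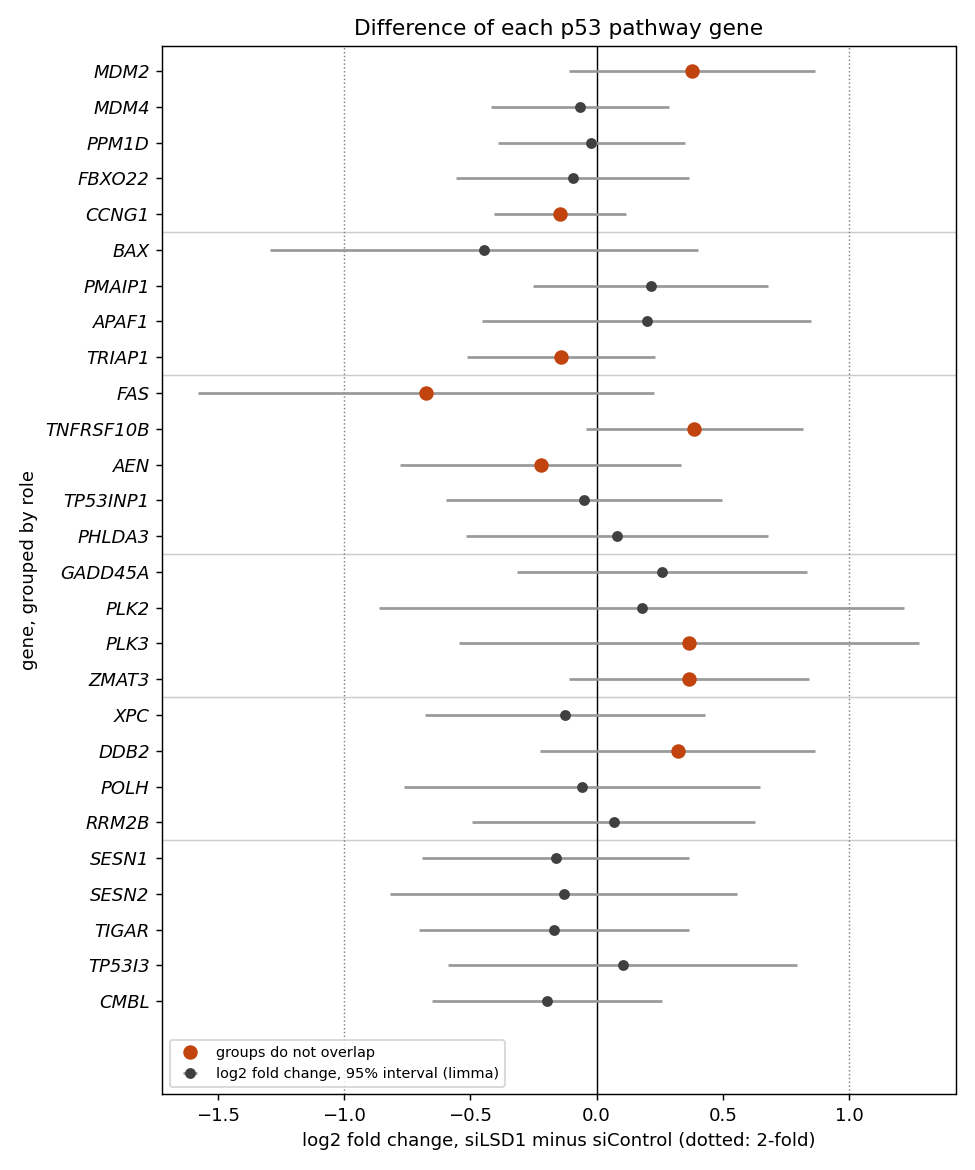
Log2 fold change (siLSD1 minus siControl, horizontal axis) of each of the 27 genes with its 95% interval from limma, grouped by role, with dotted lines at a 2-fold difference. Orange points mark the 9 genes whose groups do not overlap. Every interval includes 0, and those of BAX, FAS, PLK2 and PLK3 reach past a 2-fold difference.

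By the brightest probe set, the 4 measured growth arrest genes each had a higher mean in siLSD1, where 51.3% of all genes did. None of the 4 passed the test. Their median log2 fold change was 0.31. GADD45A, which binds PCNA and stress kinases to slow division, had 8.19 and 7.98 in siLSD1, against 7.55 and 8.10 in siControl. Its log2 fold change of 0.26 rested on siControl replicate 1, and without that array it was -0.02. ZMAT3, a zinc finger protein that binds RNA, had 8.62 and 8.91 in siLSD1, against 8.26 and 8.54 in siControl (log2 fold change 0.37, interval -0.11 to 0.84, unadjusted p = 0.113 in limma). Its groups were separated, and its 4 other probe sets above the filter ranged from -0.93 to 0.69. PLK2, a polo-like kinase, had 4.66 and 5.35 in siLSD1, against 5.32 and 4.33 in siControl (log2 fold change 0.18). The arrays of each PLK2 group differed by more than the group means, and without siControl replicate 2 the value was -0.32. PLK3, a stress-responsive kinase of the same family, had 4.39 and 4.79 in siLSD1, against 4.14 and 4.30 in siControl (log2 fold change 0.37). A second PLK3 probe set gave 0.35, but both lay just above the filter level. Another PLK3 probe set, below the filter, was separated downwards at -1.05, and the mean of all PLK3 probe sets gave -0.11.

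DNA repair and nucleotide supply genes were split into 2 higher and 2 lower, and the lower ones, XPC and POLH, lay above 0 under median centring. DDB2, the damage sensor of nucleotide excision repair, had 7.45 and 7.25 in siLSD1, against 7.13 and 6.93 in siControl. Its means of 7.35 ± 0.14 and 7.03 ± 0.15 (SD, n = 2 each) gave a log2 fold change of 0.32, or 1.25-fold (interval -0.22 to 0.87, unadjusted p = 0.212 in limma), with separated groups. XPC, which recognizes damage in the same pathway, had 7.48 and 7.84 in siLSD1, against 7.94 and 7.63 in siControl (log2 fold change -0.13). Unlike DDB2, the XPC groups overlapped. POLH, the polymerase that copies past ultraviolet lesions, had 5.44 and 5.41 in siLSD1, against 5.37 and 5.59 in siControl (log2 fold change -0.06). Its other probe sets above the filter gave -0.08, 0.20 and -1.51. The last had 5.16 and 1.72 in siLSD1, against 4.73 and 5.17 in siControl. RRM2B, the p53-inducible ribonucleotide reductase subunit, had 7.15 and 7.44 in siLSD1, against 7.36 and 7.10 in siControl (log2 fold change 0.07). Both genes overlapped between the groups.

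Of 5 metabolic and redox targets, 4 had a lower mean, but SESN1, SESN2 and TIGAR among them lay above 0 under median centring. The median log2 fold change was -0.16, and no gene had separated groups by its brightest probe set. SESN1, a sestrin that restrains the growth kinase complex mTORC1, had 7.32 and 7.62 in siLSD1, against 7.69 and 7.57 in siControl (log2 fold change -0.16). SESN2, its paralog, had 6.47 and 5.87 in siLSD1, against 6.30 and 6.30 in siControl (log2 fold change -0.13). Its siLSD1 arrays fell on either side of the control arrays, and its other probe set gave 0.41 with separated groups. TIGAR, a phosphatase that lowers glycolytic flux, had 7.69 and 7.66 in siLSD1, against 8.05 and 7.64 in siControl (log2 fold change -0.17, or 0.04 without siControl replicate 1). TP53I3, a quinone oxidoreductase, had 7.88 and 8.13 in siLSD1, against 8.33 and 7.47 in siControl (log2 fold change 0.10). The siControl arrays of TP53I3 enclosed both siLSD1 arrays. CMBL, a hydrolase, had 8.72 and 9.20 in siLSD1, against 9.14 and 9.17 in siControl (log2 fold change -0.20, from a probe set of the type that may bind other sequences). A second CMBL probe set gave 0.09.

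Probe sets of 1 gene often disagreed. The 27 genes had 74 probe sets in all, of which 55 were above the filter, 24 with a higher and 31 with a lower mean in siLSD1. In 5 of the 14 genes with several above the filter, namely FBXO22, BAX, PMAIP1, PHLDA3 and PLK3, all pointed one way, while in 9 they were mixed. Groups were separated for 21 of the 55 probe sets, against a background of 32.0%, 11 of them higher and 10 lower. No probe set of the 55 was called in limma over all probe sets (background 0%), and 2, both of MDM4, had an unadjusted p under 0.05 (background 3.35%).

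**Figure D3:**
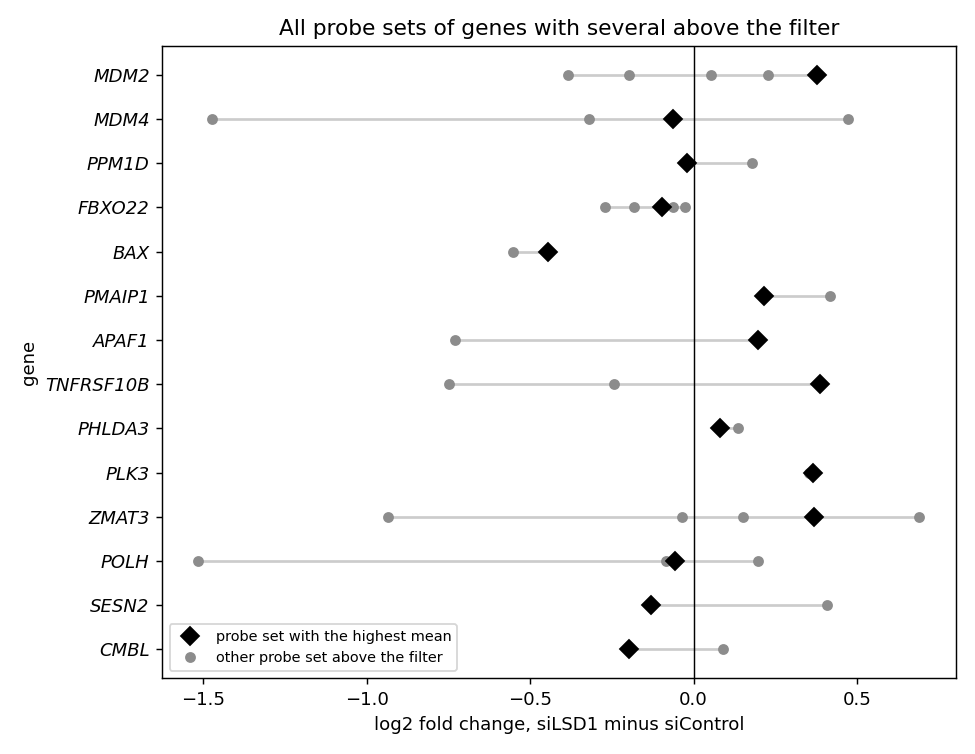
Log2 fold change (siLSD1 minus siControl, horizontal axis) of every probe set above the filter for the 14 genes with several, with the brightest probe set as a black diamond and others as grey circles. MDM4 spans -1.47 to 0.47, whereas the 5 probe sets of FBXO22 stay between -0.27 and -0.03.

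Leaving out 1 array at a time turned the direction of 14 of the 27 genes. Of the 13 that kept it, 9 had separated groups, for which this must hold, and the other 4 were BAX, PMAIP1, PHLDA3 and SESN1. BAX ranged from -0.88 to -0.01 and PMAIP1 from 0.01 to 0.42 in these fits. The set's median ranged from -0.10, when siControl replicate 2 was left out, to 0.04, when siLSD1 replicate 1 was, so its sign is not settled by these arrays. In none of these fits was any gene of the set called.

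**Figure D4:**
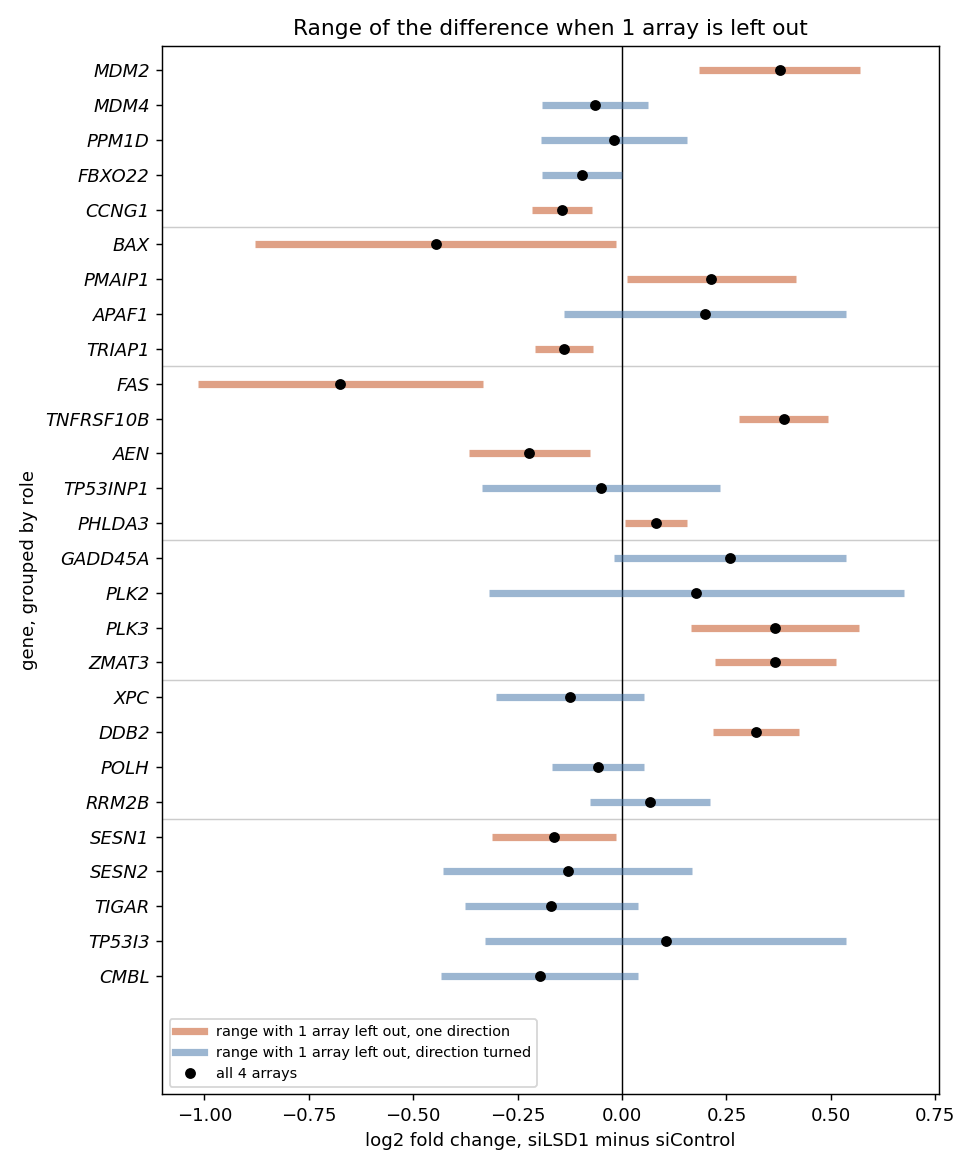
Log2 fold change (siLSD1 minus siControl, horizontal axis) of each gene with all 4 arrays (black point) and its range when each array is left out in turn (bar), orange where the direction held and blue where it turned for at least 1 array. The bars of 14 genes cross 0, and PLK2 and TP53I3 have among the widest.

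Other genes of the pathway are upstream enzymes, partners and further targets. Of 73 such genes, 59 were tested, 30 with a higher and 29 with a lower mean, a median log2 fold change of 0.009 and 0 calls in limma (3 with an unadjusted p under 0.05, against 3.44% of all genes). Among enzymes that act on p53, ATM, the kinase that signals DNA breaks, had 8.0 and 8.02 in siLSD1, against 7.90 and 7.47 in siControl (log2 fold change 0.32). The ATM value was 0.11 without siControl replicate 2 and 0.54 without siControl replicate 1. CHEK2, the kinase downstream of ATM, had a log2 fold change of -0.01 and USP7, the deubiquitinase that stabilizes MDM2 and p53, of 0.19. TP53BP1, whose binding to p53 LSD1 is known to limit, had 8.32 and 8.14 in siLSD1, against 8.55 and 8.0 in siControl (log2 fold change -0.05), with siLSD1 inside the siControl range. The acetyltransferase EP300 gave -0.03, the deacetylase SIRT1 0.23 and the secreted stress factor GDF15 -0.17. Leaving out single arrays turned EP300 (-0.30 to 0.24), GDF15 (-0.51 to 0.18), CHEK2 (-0.16 to 0.13) and TP53BP1 (-0.33 to 0.23), whose groups overlapped. ATM, USP7 (0.08 to 0.29) and SIRT1 (0.13 to 0.33) stayed above 0, which must hold because their groups were separated.

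CDKN1A, the cell cycle inhibitor p21 and the best known p53 target, had 8.50 and 8.25 in siLSD1, against 7.43 and 7.92 in siControl. Its log2 fold change was 0.70 with separated groups (unadjusted p = 0.0200, adjusted p = 0.9997 in limma), and 0.45 without siControl replicate 1. The other genes with an unadjusted p under 0.05 are named because of that value. SESN3, a sestrin like SESN1 and SESN2, had 8.68 and 8.60 in siLSD1, against 7.55 and 7.97 in siControl (log2 fold change 0.88, unadjusted p = 0.00408, adjusted p = 0.9997 in limma). EI24, an endoplasmic reticulum protein, had 9.47 and 9.32 in siLSD1, against 8.74 and 9.13 in siControl (log2 fold change 0.46, unadjusted p = 0.0393, adjusted p = 0.9997 in limma). In CDKN1A, SESN3 and EI24 alike, siControl replicate 1 was the lowest of the 4 arrays, and without it SESN3 gave 0.67 and EI24 0.26. What sets that array apart was not tested.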

How the data were processed

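Total RNA of 4 transfected cultures was labelled and hybridized to Affymetrix arrays, per the labels. The values deposited by the authors were 1 log2 signal per probe set and array. The scale was found from the values, since base-2 antilogs had a 2% trimmed mean of 100.03 on every array. The sources used here give neither the summary method nor any centring. The deposited medians were 4.09 and 4.01 for siLSD1 and 4.27 and 4.17 for siControl, so the arrays were quantile normalized. No 2 arrays were identical. Groups and numbers came from the titles. The series' design describes separate transfections of 1 line, so p-values measure that spread.

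Of 54675 probe sets, 41091 named 1 gene in the platform annotation, 1801 several and 11721 none, and 62 were controls. RefSeq (GRCh38.p14) matched 41037 and changed 0 symbols. A filter at the 40th percentile of mean level (4.12) removed dim genes and kept 11865. The test was limma 3.58.1 in R 4.3.3 (lmFit, eBayes with trend, Benjamini-Hochberg over all genes). Tested on simulated data of 11865 genes, 200 of them changed, the fit recovered 22.6% of 2-fold and 80.1% of 4-fold changes. These rates apply to that setting, and the number of genes changed in the real data is not known. The number of arrays limits the precision. All members, and pathway genes picked by role, were named by a fixed rule. SESN3, EI24, KAT8, KMT5A, SETD7, SMYD2 and the single probe sets were named after their values were seen. The members, role groups and lists were chosen with earlier results of these data known. Alternatives covered scaling, filter, variance trend, probe sets, replicate number and single arrays.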

Additional observations from a re-analysis of the deposited data

How the results depend on the processing

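With 4 arrays, no p53 gene was called under any of the 11 alternatives, while the small differences turned easily. Centring each array on its median moved the median of all genes to 0.18. The set's median was then 0.14 with 22 of 27 genes higher, and that of the other pathway genes 0.20 with 50 of 59 higher. The genes that turned there were MDM4 (0.11), PPM1D (0.14), FBXO22 (0.12), TRIAP1 (0.046), TP53INP1 (0.14), XPC (0.086), POLH (0.082), SESN1 (0.058), SESN2 (0.061) and TIGAR (0.037), each below that median. Under median centring the unadjusted p in limma was under 0.05 for MDM2 (0.0375), TNFRSF10B (0.0206), ZMAT3 (0.0431) and DDB2 (0.0489), all higher. Their adjusted p was 0.681, and 775 of the 11865 genes tested had an unadjusted p under 0.05 there. With the mean of all probe sets, PPM1D (0.080), APAF1 (-0.57), PLK3 (-0.11) and SESN2 (0.14) turned. The deposited scaling, no filter, a 60th percentile filter (which kept 20 of the 27 genes) and no variance trend turned none.

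With the replicate number as a block, 8 genes over the array were called, 0 of them p53 genes, and KDM1A (-1.32) passed with an adjusted p of 0.0433 in limma, where its range over the 11 alternatives was 0.0433 to 0.999. Same-numbered arrays deviated together with a correlation of only 0.05, so the numbers were not taken as pairs.

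Leaving out an array gave 0 to 93 calls over all genes, 93 without siControl replicate 2 and 1 without siLSD1 replicate 1. KDM1A ranged from -1.39 to -1.25 and passed without siControl replicate 2. The set's median ranged from -0.10 to 0.039 and that of the other pathway genes from -0.056 to 0.13. Ranges of the genes that turned were -0.19 to 0.062 for MDM4, -0.19 to 0.15 for PPM1D, -0.19 to 0.00074 for FBXO22, -0.14 to 0.54 for APAF1, -0.34 to 0.24 for TP53INP1, -0.018 to 0.54 for GADD45A, -0.32 to 0.67 for PLK2, -0.30 to 0.053 for XPC, -0.17 to 0.052 for POLH, -0.076 to 0.21 for RRM2B, -0.43 to 0.17 for SESN2, -0.38 to 0.039 for TIGAR, -0.33 to 0.54 for TP53I3 and -0.43 to 0.039 for CMBL. The cause was not tested.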

Other observations

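Enzymes that add acetyl or methyl groups to lysines of p53 and histones, listed together with the deacetylase SIRT1, differed in both directions. All 10 listed were tested. Means in siLSD1 were higher for 5 and lower for 5, and the median log2 fold change was -0.01. The groups were separated for 4 of the 10 (SIRT1, SETD7, KAT8 and KMT5A), where 31.6% of all genes were. The methyltransferase KMT5A had 7.85 and 7.78 in siLSD1, against 8.33 and 8.14 in siControl, the lowest difference of the 10 at -0.42. SETD7, another methyltransferase of p53, had 8.39 and 8.36 in siLSD1, against 8.30 and 8.07 in siControl (log2 fold change 0.19). SMYD2, which methylates the lysine that LSD1 is known to clear, had 9.84 and 9.65 in siLSD1, against 9.34 and 9.73 in siControl, with overlapping groups. KAT8, KMT5A, SETD7 and SMYD2 were named after their values were seen, and none passed the test in limma.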
